A study of Mus musculus with 12 samples.

Results

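Cadherins and protocadherins are the calcium-dependent adhesion receptors by which neighbouring cells recognise and hold each other. The family was taken here as every gene of the deposited RNA-Seq table whose symbol is Cdh or Pcdh with a number, or a numbered gene of the α, β or γ protocadherin cluster, which gave 92 of 57010 genes. They comprised 5 type I classical cadherins, 13 type II classical cadherins, 5 other Cdh genes, 11 non-clustered protocadherins, and 14 Pcdha, 22 Pcdhb and 22 Pcdhg genes. The RNA came from NE-4C cells, a neuroectodermal line made from mouse embryonic brain. Untreated wild-type cells (WT NO), wild-type cells given all-trans retinoic acid (WT RA), untreated Faf2 knockout cells (KO NO) and knockout cells given retinoic acid (KO RA) were sequenced as polyA RNA, with 3 libraries per group from separate passages. Retinoic acid (RA) was given at 1 µM for 24 h and the cells were collected on day 3. For the untreated cells no day of collection is stated, so RA and the days of culture after it cannot be told apart. Faf2 encodes a UBX-domain protein of the endoplasmic reticulum that helps to extract proteins for degradation, and the knockout cells are a single line that lacks exon 4 of the gene, so a difference from WT belongs to that line as well as to the genotype.

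Classical cadherins bind the same cadherin on the next cell through their extracellular repeats and bind catenins, and through them actin, with their cytoplasmic tail. Type I members such as Cdh1 (E-cadherin) and Cdh2 (N-cadherin) carry strong adhesion in epithelia and in neuroepithelium, and a switch from Cdh1 to Cdh2 accompanies the formation of the neural plate. Type II members, the non-clustered protocadherins and the clustered protocadherins are expressed in finer patterns, and each neuron chooses a small set of clustered genes by promoter choice.

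Library totals ranged from 17370069 to 30738717 counts on genes, and 31 to 64 members stood above 3 counts, the floor used here, in a library. KO RA replicate 3 stood apart: its TMM scaling factor was 0.394 (0.872 to 1.28 in the others), mitochondrial genes took 23.5% of its counts (9.10% to 17.7% in the others), and it had the fewest members above the floor. The counts of members called below are therefore given with and without it, as is each member whose call by edgeR it changed. Levels of that library in CPM are raised by its TMM factor. Statements that all KO RA libraries lay above those of another group are for levels with TMM factors. A call is one by edgeR unless another tool is named. No share over all genes is given for the other tools, so their counts are no result about the members. The labelled cell type is a neural progenitor, and the summed level of 8 progenitor markers (Sox1, Sox2, Pax6, Nes, Vim, Msi1, Fabp7 and Otx2) was 467 to 499 CPM in WT NO and 371 to 417 CPM in KO NO, with none of them at 0. Such a sum is carried by its highest genes. In KO NO against WT NO, 3 of the 8 were lower at an unadjusted p under 0.05 by edgeR and 0 higher. Pax6 was called lower, and the median log2 fold change of the 8 was −0.71, against −0.02 for all genes tested. Faf2 itself stood at 35.1 to 50.0 CPM in the WT libraries, 21.0 to 25.4 CPM in KO NO and 18.7 to 36.1 CPM in KO RA. Its counts come from all exons, so they cannot check the deletion. In bulk RNA, fewer cells of a type and less RNA per cell cannot be told apart.

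A few members supplied most of the family's RNA. Levels are given as CPM, counts scaled to a common library total. The deposited counts were themselves scaled from TPM, so they can be compared between genes as well as between libraries. In WT NO the 10 leading members held 81.4% of the summed level, headed by Cdh2 (40.8 ± 3.64 CPM, SD, n = 3), Pcdhgc3 (20.9 ± 12.3 CPM), Cdh8 (13.1 ± 9.10 CPM), Pcdh1 (13.0 ± 1.24 CPM) and Pcdh7 (10.7 ± 3.45 CPM). Cdh8, Pcdh1 and Pcdh7 did not differ from each other beyond the spread of Cdh8. Over all 12 libraries 22 of the 92 members had a mean above 1 CPM, 11 never exceeded the floor and 1, the kidney cadherin Cdh16, was at 0 in every library. The filter on low counts kept 42 members for the tests, and the other 50 are described by their values only. The summed level of the family was 149 to 170 CPM in WT NO, 150 to 169 CPM in WT RA and 141 to 167 CPM in KO NO, ranges that overlapped. In KO RA it was 312, 248 and 163 CPM, with replicate 3 inside the range of the other groups. Without TMM factors the sum of replicate 3 was 64.1 CPM, below the 131 to 205 CPM of the other groups.

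**Figure D1:**
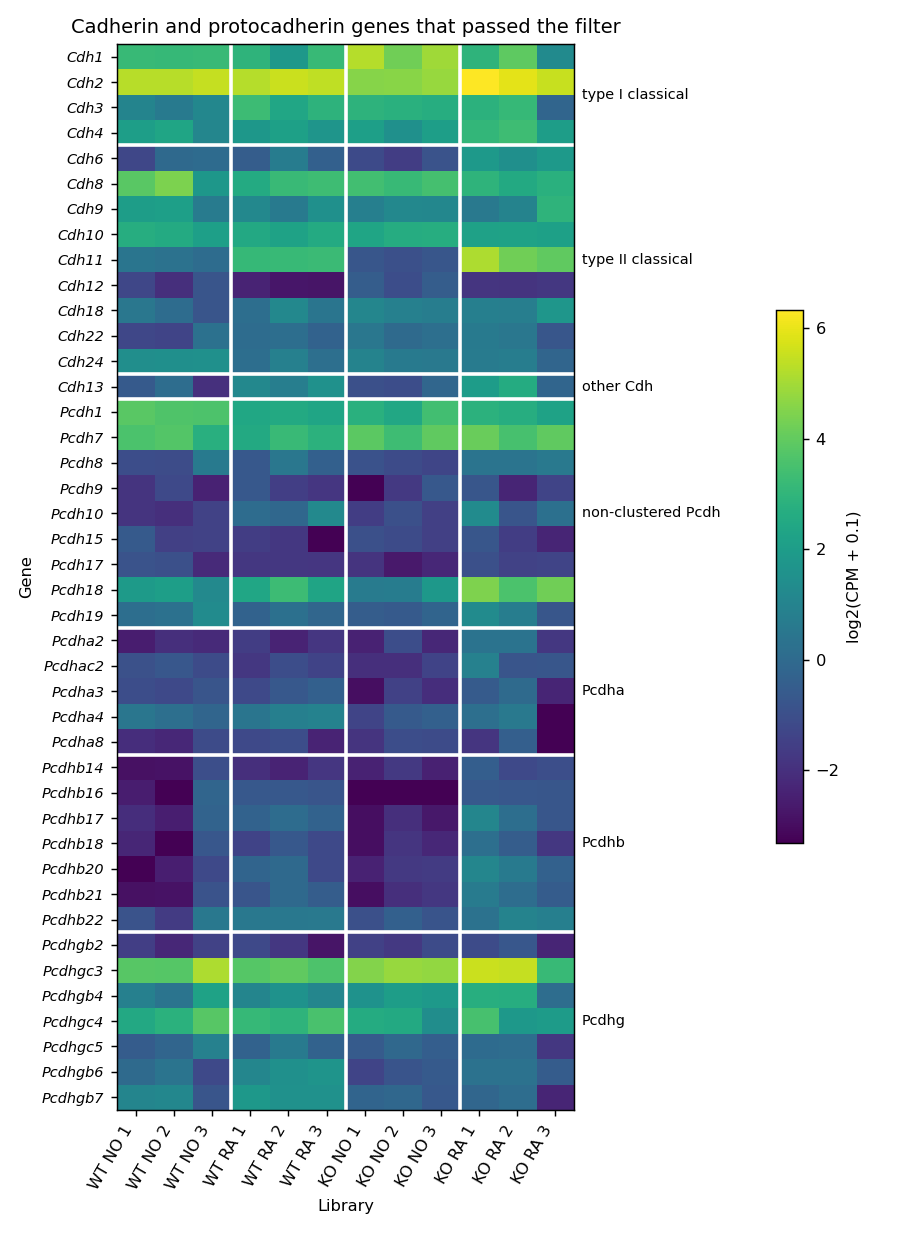
Level of the 42 members that passed the filter, as log2(CPM + 0.1), in each of the 12 libraries (columns, grouped by condition), with genes grouped by class. Cdh2 and Pcdhgc3 are bright in all columns, Cdh11 is dark in both untreated groups and bright in both RA groups, and most Pcdhb genes are darkest in KO NO and in WT NO replicates 1 and 2.

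The type I genes Cdh1 and Cdh3 (P-cadherin), both cadherins of epithelia, lie close together on chromosome 8. The stretch just before each start site is shown because Snail- and Zeb-type repressors bind E-boxes of the form CAGGTG in the Cdh1 promoter. These genes and Cdh11 are also among those with the differences described next, as is Cdh2, whose window is not printed. The 250 bases before the start of the canonical transcript in GENCODE are chr8:107329733-107329982 for Cdh1 and chr8:107237206-107237455 for Cdh3 on the plus strand, and chr8:103512275-103512524 for Cdh11 on the minus strand (GRCm39). They are printed 5′ to 3′ along the gene, with CAGGTG or its reverse complement CACCTG in capitals.
Cdh1: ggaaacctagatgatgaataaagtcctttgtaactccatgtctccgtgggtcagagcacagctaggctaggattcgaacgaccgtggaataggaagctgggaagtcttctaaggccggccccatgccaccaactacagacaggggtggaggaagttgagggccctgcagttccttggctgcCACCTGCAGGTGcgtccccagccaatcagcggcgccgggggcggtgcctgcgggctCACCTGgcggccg
Cdh3: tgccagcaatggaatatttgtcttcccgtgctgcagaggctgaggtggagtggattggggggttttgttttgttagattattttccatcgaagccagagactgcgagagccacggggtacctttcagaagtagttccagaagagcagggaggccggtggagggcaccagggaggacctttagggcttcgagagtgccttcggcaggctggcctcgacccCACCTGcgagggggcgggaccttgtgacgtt
Cdh11: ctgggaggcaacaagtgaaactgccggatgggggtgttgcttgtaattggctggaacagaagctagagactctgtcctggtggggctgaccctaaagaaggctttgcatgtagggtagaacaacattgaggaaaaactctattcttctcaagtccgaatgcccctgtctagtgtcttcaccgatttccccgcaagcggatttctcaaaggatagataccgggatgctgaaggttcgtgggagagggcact
Cdh1 has 3 such E-boxes, whose first bases are at −69, −63 and −13 counted back from the start site, Cdh3 has 1 at −31 and Cdh11 has 0 in this window. Cdh2, lower in untreated KO cells as Cdh11 was, has 1 at −209. Among all 21770 protein-coding promoters of this length, 17.7% hold at least 1, against 3 of 5 in type I cadherins and 9 of all 92 members. A match is a description of the sequence, and no match says only that these letters are not in the window.

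Untreated KO cells had more Cdh1 and Cdh3 and less Cdh2 and Cdh11 than untreated WT cells in every library. The comparison asks what loss of Faf2 changed before induction. Cdh1 stood at 8.95, 8.65 and 8.88 CPM in WT NO and at 38.4, 18.9 and 30.5 CPM in KO NO. Cdh3 stood at 1.94, 1.48 and 2.14 CPM in WT NO and at 7.44, 6.81 and 6.34 CPM in KO NO. Cdh2 stood at 38.9, 38.6 and 45.02 CPM in WT NO and at 23.8, 24.6 and 28.6 CPM in KO NO. For each of these genes the lowest library of one group lay above the highest of the other. The ratio of Cdh1 to Cdh2 within a library was 0.197 to 0.230 in WT NO and 0.769 to 1.61 in KO NO, and Cdh1 was the leading member of the family in KO NO, with a mean of 29.3 ± 9.81 CPM, although the spread of Cdh1 covered the means of Pcdhgc3 (26.1 ± 2.58 CPM) and Cdh2 (25.6 ± 2.56 CPM).

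With all 12 libraries in the model, no member passed the test in KO NO against WT NO (edgeR's quasi-likelihood test, adjusted p under 0.05), where 0.788% of all 16502 genes tested were called higher and 0.351% lower. With unadjusted p-values (0.05) there were 2 of 42 members higher and 4 lower, against 959 and 1052 of all 16502 genes. DESeq2 called 5 members (share over all genes not given). Cdh1 differed by a log2 fold change of 1.73 ± 0.55 (SE; adjusted p = 0.194), Cdh3 by 1.89 ± 0.60 (adjusted p = 0.197), Cdh2 by −0.67 ± 0.22 (adjusted p = 0.223) and Cdh11 by −1.23 ± 0.32 (adjusted p = 0.107). Without KO RA replicate 3, which is in neither group but shares the estimate of variance, all 4 passed: Cdh3 at 1.89 ± 0.25 (adjusted p = 0.00226), Cdh1 at 1.74 ± 0.37 (adjusted p = 0.0186), Cdh2 at −0.66 ± 0.14 (adjusted p = 0.0188) and Cdh11 at −1.22 ± 0.27 (adjusted p = 0.0208). In this second fit 4.43% of 17327 genes were called higher and 4.35% lower, so 2 of 50 members in each direction was close to the share over all genes. The fold changes of these 4 genes differed by at most a few hundredths between the fits.

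Of 10 epithelial markers, 1 was called higher in KO NO with all libraries and 2 without KO RA replicate 3. The summed level of the list was 84.5 to 147 CPM in WT NO and 138 to 196 CPM in KO NO, ranges that overlapped, and its median log2 fold change was 2.03 against −0.02 for all genes tested. The gene called with all libraries was the tight-junction gene Cldn6 (log2 fold change 2.57 ± 0.49, adjusted p = 0.0336). Cldn6 stood at 1.73, 2.66 and 2.78 CPM in WT NO and at 22.3, 8.77 and 11.6 CPM in KO NO. Krt19 and Cldn7 were at or under the floor in WT NO and WT RA and above it in KO NO. The part of this list in the Cdh1 difference was not tested. Of 7 transcription repressors of Cdh1 (Snai1, Snai2, Twist1, Twist2, Zeb1, Zeb2 and Tcf4), none was called in KO NO against WT NO with all libraries, where 1 passed an unadjusted p under 0.05 and Twist2 was called lower without KO RA replicate 3 (log2 fold change −2.03, adjusted p = 0.0243). Twist2 stood at 0.704, 0.776 and 0.946 CPM in WT NO and at 0.176, 0.267 and 0.140 CPM in KO NO.

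**Figure D2:**
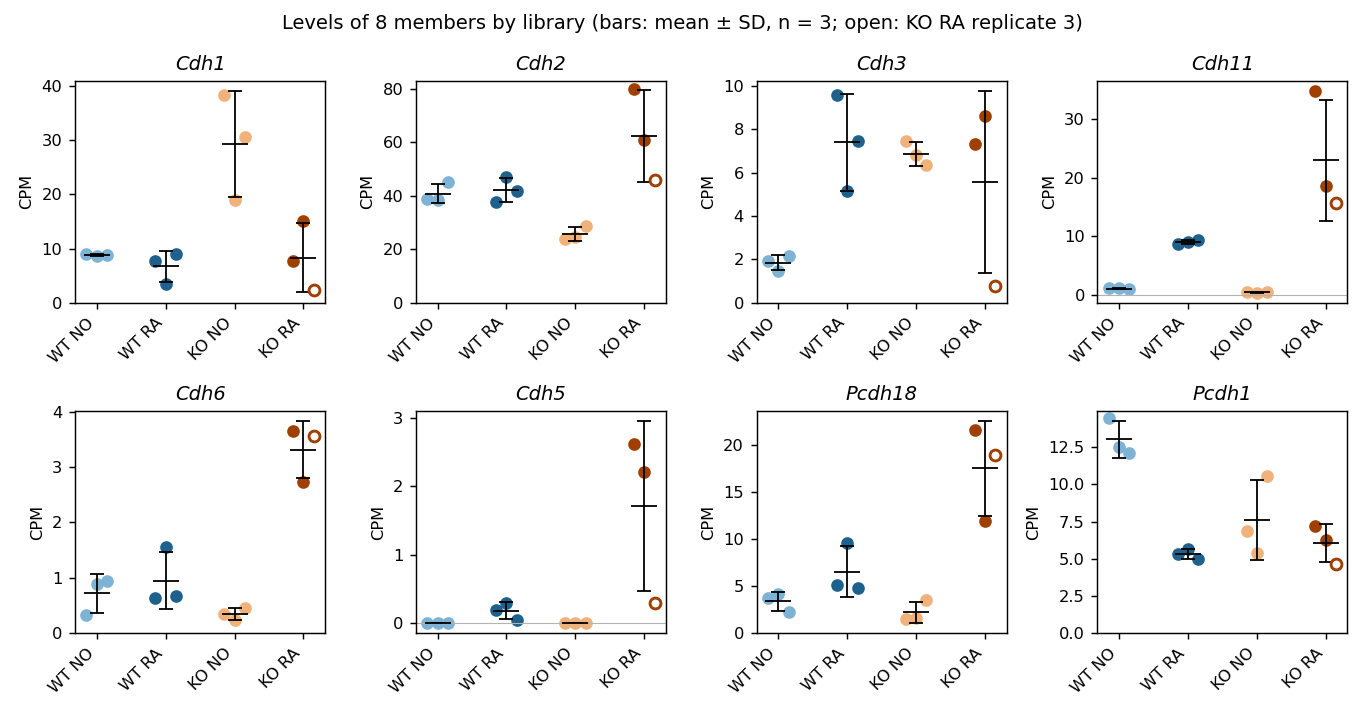
Level in CPM of 8 members (1 panel each, linear axes from 0) in WT NO, WT RA, KO NO and KO RA, with 1 point per library, bars for the mean ± SD of 3 libraries, and KO RA replicate 3 as an open circle. Cdh1 is highest in KO NO (18.9 to 38.4 CPM), Cdh11 is near 1 CPM or under in both untreated groups and at 15.7 to 34.7 CPM in KO RA, and Cdh5 is at 0 in all untreated libraries.

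Cdh2 rose from KO NO to KO RA, and no difference was detectable between WT NO and WT RA. In KO RA, Cdh2 stood at 80.1, 61.0 and 45.8 CPM, all above KO NO, and its log2 fold change was 1.28 ± 0.23 (adjusted p = 0.0102). Replicate 3 lay above KO NO only with its TMM factor. It held 462 of 25660576 counts, against 812 of 29350783, 830 of 30738717 and 1023 of 29866854 in KO NO. In WT RA Cdh2 stood at 37.8, 47.0 and 41.8 CPM, which overlapped WT NO, and its log2 fold change was 0.05 ± 0.22 (adjusted p = 0.968). The call in KO cells was lost without KO NO replicate 1, without KO NO replicate 2 (adjusted p = 0.0675) and when only the groups compared were fitted (adjusted p = 0.09925). The difference between the 2 responses was 1.23 ± 0.32 on the log2 scale (adjusted p = 0.327) and 1.40 ± 0.21 without KO RA replicate 3 (adjusted p = 0.0191).

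Cdh1 was lower with RA than without it in KO cells. It stood at 7.63, 15.03 and 2.38 CPM in KO RA, each below every KO NO library, with a log2 fold change of −1.79 ± 0.55 (adjusted p = 0.0844) that passed without KO RA replicate 3 (−1.38 ± 0.42, adjusted p = 0.0475). In WT RA it stood at 7.69, 3.44 and 8.98 CPM and overlapped WT NO (log2 fold change −0.40 ± 0.54, adjusted p = 0.849). The ratio of Cdh1 to Cdh2 was 0.0732 to 0.215 in WT RA and 0.0519 to 0.247 in KO RA, so both RA groups covered a similar range. The epithelial markers summed to 138 to 196 CPM in KO NO and 70.6 to 110 CPM in KO RA, with a median log2 fold change of −1.32. Of the 10, 1 was called lower with all libraries (Cldn6, −3.35 ± 0.52, adjusted p = 0.00583) and 2 without KO RA replicate 3. The part of these markers in the Cdh1 levels was not tested.

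Cdh3 stood at 9.57, 5.14 and 7.45 CPM in WT RA, each above every WT NO library. The log2 fold change was 1.99 ± 0.60 (adjusted p = 0.202), and 2.00 ± 0.25 without KO RA replicate 3 (adjusted p = 0.00253). In KO RA it stood at 7.31, 8.62 and 0.793 CPM, with replicates 1 and 2 close to KO NO and replicate 3 far below. Its response in KO cells minus that in WT cells was −2.27 ± 0.83 (adjusted p = 0.486), and −1.79 ± 0.36 without replicate 3 (adjusted p = 0.0458).

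The other type I genes were quieter. Cdh4 (R-cadherin), a cadherin of retina and brain, stood at 4.16, 5.03 and 2.04 CPM in WT NO, 3.36, 4.41 and 3.15 CPM in WT RA, 4.25, 2.75 and 4.19 CPM in KO NO, and 8.31, 9.85 and 4.06 CPM in KO RA. Its difference between KO RA and KO NO was 1.00 ± 0.40 (adjusted p = 0.159), and 1.27 ± 0.34 without KO RA replicate 3 (adjusted p = 0.0311). Cdh15 (M-cadherin), a cadherin of muscle, was not tested and reached at most 0.271 CPM in a library.

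Among the type II cadherins, Cdh11 rose with RA in both genotypes and had the largest change that edgeR called with all 12 libraries. Cdh11, a cadherin of mesenchyme and of parts of the developing brain, stood at 1.23, 1.15 and 0.977 CPM in WT NO and at 8.75, 9.07 and 9.46 CPM in WT RA. In KO NO it stood at 0.498, 0.415 and 0.503 CPM, and in KO RA at 34.7, 18.5 and 15.7 CPM. No library of an RA group overlapped its untreated group, and the 4 groups took the order KO NO, WT NO, WT RA, KO RA without overlap between neighbours. The place of KO RA replicate 3 above WT RA rests on its TMM factor. It held 158 counts from a larger library total, against 182 to 198 in WT RA. The log2 fold change with RA was 3.02 ± 0.31 in WT cells (adjusted p = 0.00531) and 5.59 ± 0.35 in KO cells (adjusted p = 7.63e-05). Cdh11 was the only member that edgeR called in WT RA against WT NO with all libraries, where 0.321% of genes were called higher and 0.0848% lower, and that call was lost without WT NO replicate 1 (adjusted p = 0.0562). DESeq2 called 5 members there, Cdh11, Cdh3, Pcdh10 and Pcdhgb6 higher and Pcdh1 lower. The difference between the responses was 2.57 ± 0.43 (adjusted p = 0.107), and 2.76 ± 0.36 without KO RA replicate 3 (adjusted p = 0.0115). KO RA exceeded WT RA by 1.34 ± 0.29 (adjusted p = 0.0515), and by 1.54 ± 0.24 without that library (adjusted p = 0.00512).

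Markers of mesenchyme had higher sums with RA in both genotypes, as Cdh11 had higher levels. The summed level of 10 such markers was 20.6 to 86.2 CPM in WT NO, 87.5 to 267 CPM in WT RA, 18.3 to 27.4 CPM in KO NO and 177 to 1439 CPM in KO RA, the highest value being that of replicate 3. Col3a1 and Col1a2, fibrillar collagens, were called in both RA comparisons, and 5 of the 10 were called higher in KO RA against KO NO. Within the RA groups the markers and Cdh11 took different orders. KO RA replicate 3 had the highest marker sum and the lowest Cdh11 of its group (15.7 CPM). WT RA replicate 3 had the lowest marker sum and the highest Cdh11 of its group (9.46 CPM). The part of the markers in the Cdh11 difference was not tested.

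Cdh6 (K-cadherin), a cadherin of kidney and of hindbrain and neural crest, stood at 0.352, 0.237 and 0.447 CPM in KO NO and at 3.66, 2.73 and 3.57 CPM in KO RA. It rose in KO cells by a log2 fold change of 3.24 ± 0.56 (adjusted p = 0.00915), a call that was lost without KO NO replicate 1 or without KO NO replicate 2 (highest adjusted p = 0.0623). In WT NO it stood at 0.317, 0.887 and 0.946 CPM and in WT RA at 0.625, 1.55 and 0.669 CPM, ranges that overlapped (log2 fold change 0.40 ± 0.52, adjusted p = 0.841). The difference between the responses was 2.84 ± 0.75 (adjusted p = 0.35) and did not pass without KO RA replicate 3 either (adjusted p = 0.101).

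Cdh5 (VE-cadherin), the junctional cadherin of endothelial cells, was at 0 in all 6 untreated libraries. It stood at 0.192, 0.291 and 0.0478 CPM in WT RA and at 2.62, 2.21 and 0.297 CPM in KO RA. Against the floor of 3 counts per library, its mean in KO RA was at least 19.7-fold higher than in KO NO, and its mean in WT RA at least 1.72-fold higher than in WT NO. It did not pass the filter with all libraries. With KO RA replicate 3 left out it passed the filter through KO RA replicates 1 and 2 and was called in both RA comparisons and in KO RA against WT RA. It passed only through the group where it was high, and WT RA held 6 counts or fewer in a library, so these calls add nothing to the levels.

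Endothelial markers had higher sums in KO RA than in KO NO, as Cdh5 had higher levels. In WT cells the sums with and without RA overlapped. The summed level of 8 endothelial markers was 0.591 to 2.87 CPM in WT NO, 1.58 to 2.57 CPM in WT RA, 1.27 to 2.09 CPM in KO NO and 10.1 to 19.1 CPM in KO RA. In KO NO, Tie1, Emcn and Erg were at or under the floor, and in KO RA none of the 8 was. Of the 6 that passed the filter, 4 were called higher in KO RA against KO NO (Cd34, Emcn, Kdr and Tek). The VEGF receptor Kdr stood at 0.293, 0.148 and 0.140 CPM in KO NO and at 5.33, 5.18 and 2.38 CPM in KO RA. Whether the Cdh5 transcripts came from a few endothelial cells was not tested.

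The remaining type II genes were called by edgeR in no comparison with all libraries. DESeq2 called Cdh20 higher in KO RA than in WT RA (adjusted p = 0.0309), and limma-voom called Cdh9, Cdh22 and Cdh24 between the untreated groups and Cdh24 in WT RA against WT NO. Cdh8, a cadherin of cortical and striatal neurons, stood at 14.5, 21.4 and 3.39 CPM in WT NO, and its other groups (5.87 to 9.84 CPM in WT RA, 8.95 to 10.97 CPM in KO NO and 5.76 to 7.63 CPM in KO RA) lay inside that range. Cdh10 was the steadiest, at 4.30 to 6.42 CPM over all 12 libraries. Cdh24 stood at 2.64, 2.66 and 2.75 CPM in WT NO and at 1.01, 1.75 and 1.05 CPM in WT RA, a log2 fold change of −1.08 ± 0.38 (adjusted p = 0.258) that passed without KO RA replicate 3 (adjusted p = 0.0495). Cdh20 was at or near 0 in the WT groups and stood at 0.0879, 0.178 and 0.112 CPM in KO NO and at 0.993, 0.443 and 0.396 CPM in KO RA. Cdh7 and Cdh19 reached at most 0.430 and 0.669 CPM, and Cdh9, Cdh12, Cdh18 and Cdh22 gave adjusted p-values of 0.179 and above by edgeR in every comparison with all libraries.

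Of the other Cdh genes, Cdh13 (T-cadherin), which lacks a cytoplasmic tail and is held by a lipid anchor, was the single one tested. It stood at 0.563, 0.998 and 0.153 CPM in WT NO and at 2.16, 1.65 and 2.82 CPM in WT RA, without overlap. In KO NO it stood at 0.410, 0.385 and 0.810 CPM and in KO RA at 3.93, 5.96 and 0.793 CPM, where replicate 3 lay inside the KO NO range. The log2 fold change with RA was 1.95 ± 0.75 in WT cells (adjusted p = 0.31) and 2.74 ± 0.76 in KO cells (adjusted p = 0.0612). It passed without KO RA replicate 3 in KO cells (3.19 ± 0.62, adjusted p = 0.00734) and not in WT cells (adjusted p = 0.0532). The intestinal Cdh17, the hair-cell Cdh23 and Cdh26 reached at most 0.234 CPM.

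In KO RA against KO NO, 5 members were called higher and 0 lower: Cdh11, Cdh2, Cdh6, Pcdh18 and Pcdhb17. Over all genes 3.89% were called higher and 1.59% lower. With unadjusted p-values (0.05) there were 18 of 42 members higher and 2 lower, against 2608 and 1555 of all 16502 genes. DESeq2 called 15 members (share over all genes not given). The median log2 fold change over the 42 members tested was 0.92, against 0.11 over all genes tested. Without KO RA replicate 3, 13 of 50 members were called higher and 1 (Cdh1) lower, with Cdh5 and Pcdhb11, which passed the filter in that fit alone, among the 13, where 8.48% of all genes were called higher and 7.54% lower. Leaving out KO NO replicate 1 or KO NO replicate 2 reduced the calls to 2, and leaving out WT NO replicate 2 or WT NO replicate 3 raised them to 8 and 11. The shares over all genes in these fits are not given, so the counts cannot be set against them.

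In WT RA against WT NO, the fit without KO RA replicate 3 called 5 members higher (Cdh3, Cdh5, Cdh11, Pcdh10 and Pcdhgb6, of which Cdh5 passed the filter through KO RA) and 2 lower (Cdh24 and Pcdh1), where 5.65% of all genes were called higher and 5.13% lower. The median log2 fold change of the 42 members with all libraries was 0.25, against −0.01 for all genes.

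**Figure D3:**
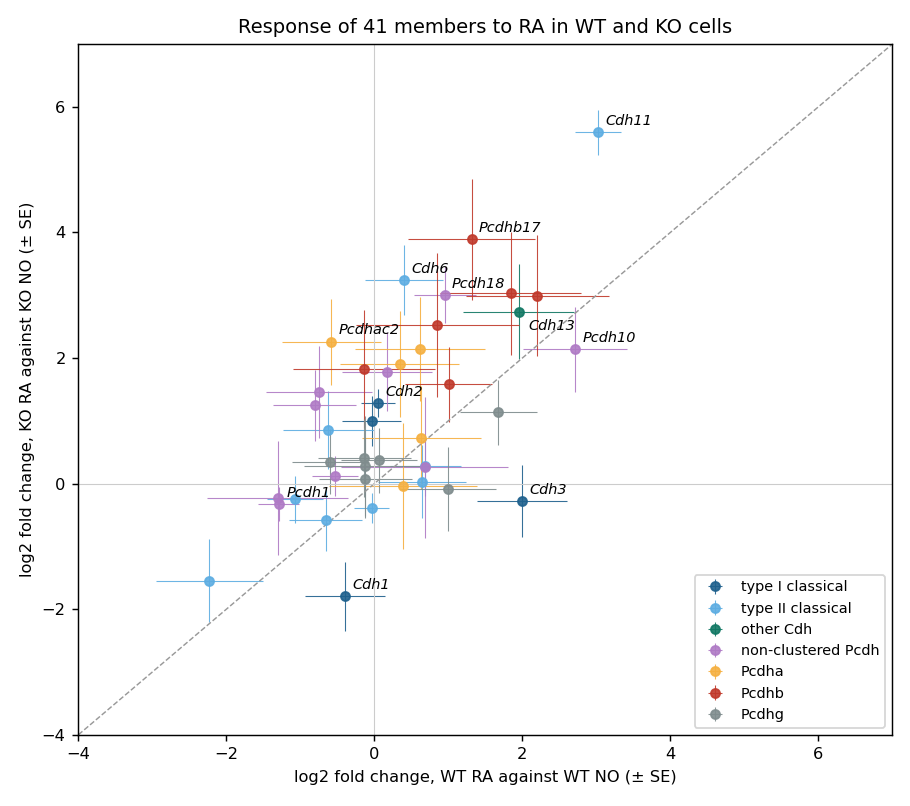
Log2 fold change with RA in WT cells (horizontal axis) and in KO cells (vertical axis) for 41 members that were tested and not at 0 throughout KO NO, with SE as bars, colours for the class and a dashed line of equal response. Cdh11 lies farthest up (3.02 in WT cells and 5.59 in KO cells), Cdh1 is the lowest of the type I genes, and Cdh3 is right of the line.

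The non-clustered protocadherins were led by Pcdh7, Pcdh1 and Pcdh18, and Pcdh18 rose with RA in KO cells. Pcdh18, a protocadherin of the δ2 group, stood at 1.52, 1.57 and 3.46 CPM in KO NO and at 21.6, 11.9 and 18.9 CPM in KO RA. The log2 fold change was 3.00 ± 0.45 (adjusted p = 0.00506), and it stayed called under each of 19 alternatives. KO RA replicate 3 was level with the other KO RA libraries only with its TMM factor. It held 191 counts from a larger library total, against 479 and 350. In WT NO Pcdh18 stood at 3.77, 4.14 and 2.23 CPM and in WT RA at 5.14, 9.60 and 4.83 CPM, a difference of 0.95 ± 0.42 (adjusted p = 0.384). The difference between the responses was 2.05 ± 0.60 (adjusted p = 0.389, and 0.12 without KO RA replicate 3).

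Pcdh1, a protocadherin of the δ1 group, was lower in each WT RA library than in any WT NO library. It stood at 14.4, 12.5 and 12.1 CPM in WT NO and at 5.34, 5.67 and 4.97 CPM in WT RA, a log2 fold change of −1.29 ± 0.28 (adjusted p = 0.0779) that passed without KO RA replicate 3 (adjusted p = 0.00933). In KO NO it stood at 6.85, 5.36 and 10.6 CPM, below every WT NO library (−0.78 ± 0.27, adjusted p = 0.253), and in KO RA at 7.18, 6.27 and 4.66 CPM, which overlapped KO NO.

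Pcdh7, also of the δ1 group, stood at 12.01, 13.2 and 6.74 CPM in WT NO, 5.67, 9.21 and 7.21 CPM in WT RA, 14.9, 9.98 and 15.4 CPM in KO NO, and 17.2, 11.2 and 15.6 CPM in KO RA. The KO RA libraries lay above the WT RA libraries, by 0.99 ± 0.32 on the log2 scale (adjusted p = 0.158, and 0.0946 without KO RA replicate 3). The KO NO libraries also lay above the WT RA libraries.

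The δ2 protocadherins Pcdh8, Pcdh10, Pcdh17 and Pcdh19 were at low levels. Pcdh10 stood at 0.176, 0.148 and 0.275 CPM in WT NO and at 0.961, 0.824 and 2.24 CPM in WT RA, a log2 fold change of 2.72 ± 0.70 (adjusted p = 0.137) that passed without KO RA replicate 3 (adjusted p = 0.036). In KO NO it stood at 0.234, 0.415 and 0.251 CPM and in KO RA at 2.44, 0.477 and 1.09 CPM (2.14 ± 0.68, adjusted p = 0.0931). In both genotypes the RA libraries lay above the untreated ones.

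Pcdh19, the X-linked gene of an epilepsy syndrome, stood at 1.02, 1.11 and 2.41 CPM in WT NO, 0.721, 1.07 and 0.812 CPM in WT RA, 0.615, 0.563 and 0.754 CPM in KO NO, and 2.44, 1.601 and 0.496 CPM in KO RA. The KO RA replicates 1 and 2 were above KO NO and replicate 3 was below it, and the difference passed without replicate 3 (1.63 ± 0.47, adjusted p = 0.0392). Pcdh8 stood at 0.439, 0.355 and 0.307 CPM in KO NO and at 1.22, 1.23 and 1.39 CPM in KO RA, without overlap (1.78 ± 0.63, adjusted p = 0.12, and 0.114 without KO RA replicate 3). Pcdh17 was between 0.0592 and 0.458 CPM in all libraries. Pcdh9 and Pcdh15 gave no call, and the untested Pcdh12 and Pcdh20 reached at most 0.948 and 0.0991 CPM.

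The clustered protocadherins lie in 3 neighbouring arrays on chromosome 18. In GENCODE each of the 14 Pcdha genes shares exons with the others and 2 exons are common to all 14, and the same holds for the 22 Pcdhg genes, with 2 exons common to all 22. Each of the 22 Pcdhb genes is a single exon and shares none, but the copies are alike in sequence. Reads from shared exons or near-identical copies cannot be assigned with certainty, so levels of single clustered genes are uncertain. The 3 arrays together gave 29.5, 31.1 and 69.9 CPM in WT NO, 43.5, 47.1 and 43.6 CPM in WT RA, 36.8, 45.5 and 39.7 CPM in KO NO, and 89.3, 73.0 and 21.8 CPM in KO RA. WT NO replicate 3 and KO RA replicate 3 each stood apart from the other libraries of their group. The CGCT core of the box shared by clustered promoters, searched as CGCT or AGCG in 250 bases before the start, was present in 14 of 14 Pcdha, 21 of 22 Pcdhb and 20 of 22 Pcdhg promoters, against 10 of 11 promoters of non-clustered protocadherins and 59.4% of all protein-coding promoters.

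Of the clustered genes edgeR called a single one, Pcdhb17, with all libraries, and the β array as a whole stood higher in KO RA than in KO NO. The summed β level was 1.06, 0.739 and 5.98 CPM in WT NO and 7.45, 7.52 and 6.45 CPM in WT RA, so that WT NO replicate 3 was close to the RA group. It was 0.762, 1.75 and 1.31 CPM in KO NO and 14.5, 8.48 and 5.55 CPM in KO RA, without overlap. In KO NO 9 of the 22 β genes were at 0 in all 3 libraries and 6 exceeded the floor in at least 1. In WT NO 4 were at 0 and 13 exceeded the floor in at least 1, against 17 in WT RA and 18 in KO RA. The floor was exceeded in all 3 libraries by 1 β gene in each untreated group, 10 in WT RA and 6 in KO RA. Pcdhb17 stood at 0.0293, 0.148 and 0.0558 CPM in KO NO and at 2.08, 1.02 and 0.496 CPM in KO RA. It was called with a log2 fold change of 3.89 ± 0.96 (adjusted p = 0.0413), and the call held in 7 of 18 alternatives and in 3 of the 12 fits that left out 1 library, with the highest adjusted p of 0.17 without KO NO replicate 1. The KO NO values of Pcdhb17 are a few counts each.

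The other tested β genes stayed above an adjusted p of 0.05 by edgeR with all libraries. In KO RA against KO NO, DESeq2 called Pcdhb11, Pcdhb16, Pcdhb20 and Pcdhb21 beside Pcdhb17. Pcdhb20 stood at 0.0879, 0.207 and 0.223 CPM in KO NO and at 2.03, 1.46 and 0.694 CPM in KO RA (2.99 ± 0.97, adjusted p = 0.0968). Pcdhb22, the β gene with the highest mean, stood at 0.410, 0.681 and 0.475 CPM in KO NO and at 1.13, 1.91 and 1.69 CPM in KO RA (1.58 ± 0.60, adjusted p = 0.14, and 0.137 without KO RA replicate 3). Both had all 3 KO RA libraries above KO NO. Pcdhb16 and Pcdhb11 were at 0 in all KO NO libraries, and against the floor of 3 counts per library their means in KO RA were at least 5.94-fold and 7.95-fold higher than in KO NO. In the fit without KO RA replicate 3, Pcdhb17 and Pcdhb20 were called higher in KO RA against KO NO, with adjusted p-values of 0.0153 and 0.0473. Pcdhb11 and Pcdhb16 were called there too, with all KO NO libraries at 0, and Pcdhb11 passed the filter in that fit alone, so their calls add nothing to the levels. No β gene was called by edgeR in WT RA against WT NO in either fit, while limma-voom called Pcdhb16, Pcdhb17, Pcdhb20, Pcdhb21 and Pcdhb22 higher. Among the tested β genes, WT NO replicate 3 overlapped the WT RA libraries for Pcdhb14, Pcdhb16, Pcdhb17, Pcdhb18 and Pcdhb20.

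**Figure D4:**
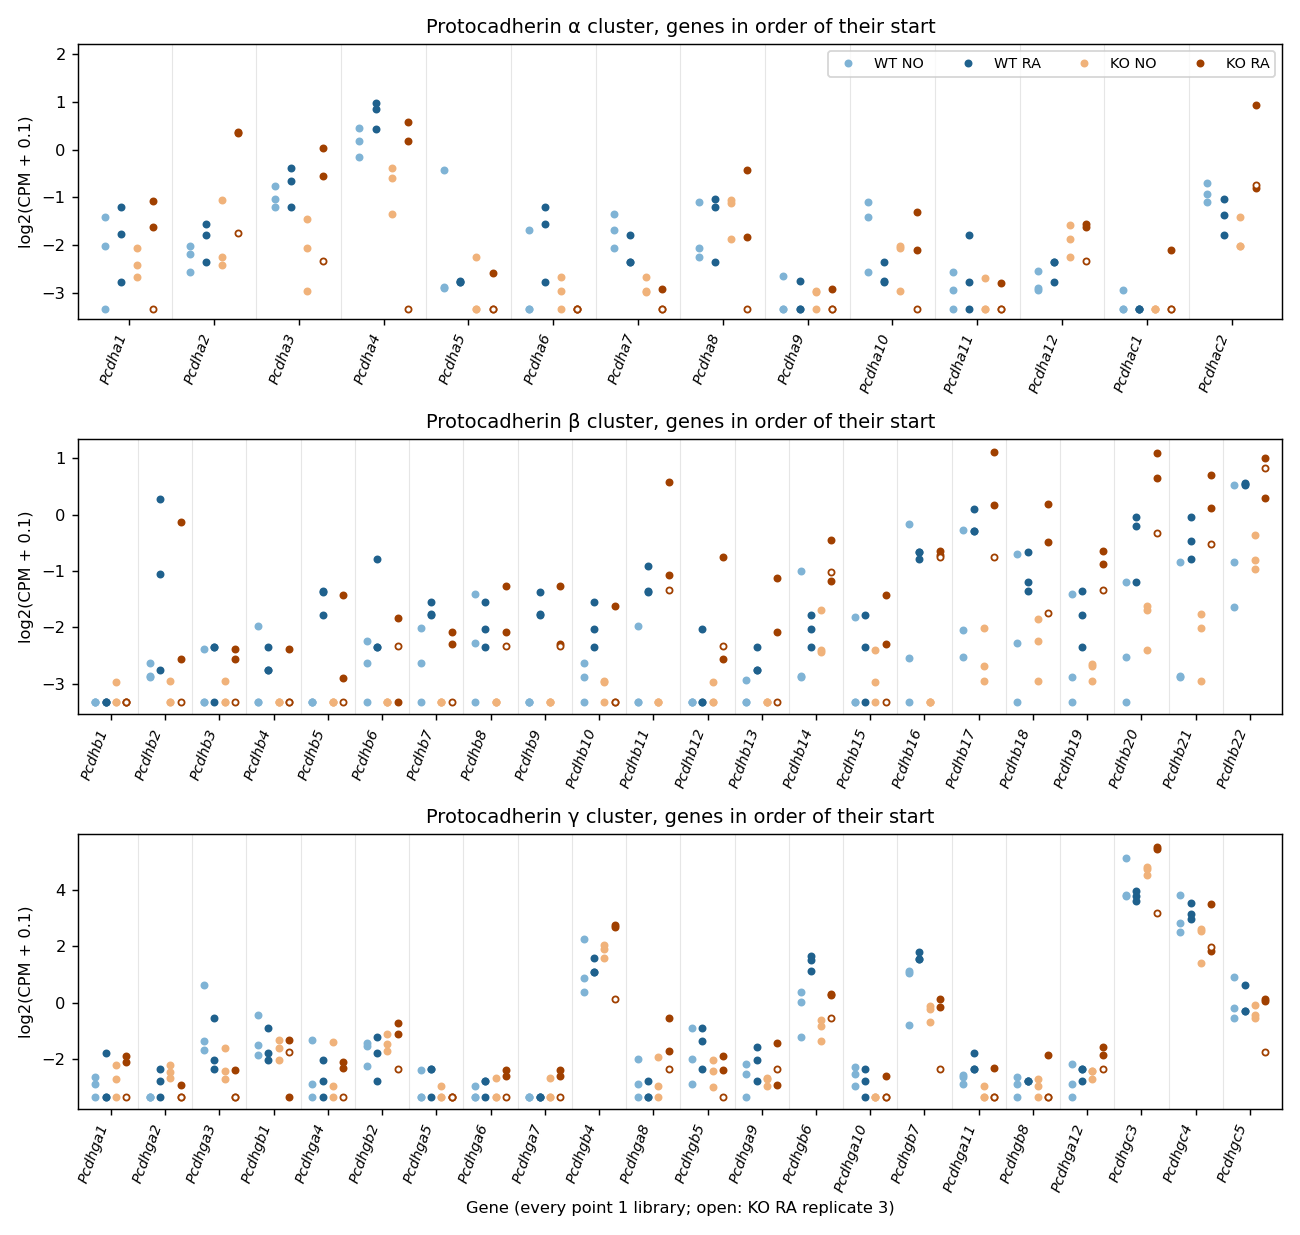
Level of each clustered protocadherin as log2(CPM + 0.1), with genes in order of their start in the α, β and γ arrays, 1 point per library, colours for the 4 groups and KO RA replicate 3 as an open circle. At Pcdhb16 to Pcdhb22 the KO RA points lie above the KO NO points, and Pcdhgc3 and Pcdhgc4 are the highest clustered genes.

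The α genes were low throughout. Their summed level was 2.64 to 3.91 CPM in WT NO, 3.221 to 3.92 CPM in WT RA, 1.11 to 2.31 CPM in KO NO, and 5.55, 5.69 and 0.892 CPM in KO RA. The untreated groups did not overlap, with every KO NO sum under every WT NO sum. Pcdha4, the highest, stood at 1.27, 1.04 and 0.793 CPM in WT NO, at 0.293, 0.563 and 0.670 CPM in KO NO, at 1.25 to 1.86 CPM in WT RA and at 1.04, 1.40 and 0 CPM in KO RA. Pcdha3 was at 0.333 to 0.488 CPM in WT NO and at 0.0293 to 0.267 CPM in KO NO. Neither passed the test in KO NO against WT NO (adjusted p = 0.744 and 0.557).

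Pcdhac2, a C-type gene at the end of the α array that is not chosen at random among neurons, stood at 0.146, 0.148 and 0.279 CPM in KO NO and at 1.81, 0.477 and 0.496 CPM in KO RA. The log2 fold change was 2.26 ± 0.68 (adjusted p = 0.0796), and 2.53 ± 0.71 without KO RA replicate 3 (adjusted p = 0.0355). Replicate 1 was high and the other KO RA libraries were close to each other.

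The γ array was dominated by Pcdhgc3, a C-type gene, which took 36.7% to 74.7% of the array's summed level. It stood at 14.1, 13.6 and 35.1 CPM in WT NO, 13.7, 15.6 and 12.2 CPM in WT RA, 23.3, 28.3 and 26.8 CPM in KO NO, and 46.4, 44.0 and 9.02 CPM in KO RA. Its share was 36.7% to 43.8% in WT RA, 49.7% to 58.5% in WT NO and 58.7% to 74.7% in the 6 KO libraries. KO RA exceeded WT RA by 1.26 ± 0.53 (adjusted p = 0.255), and by 1.70 ± 0.35 without KO RA replicate 3 (adjusted p = 0.0155). Pcdhgb4 stood at 2.02, 2.91 and 2.05 CPM in WT RA and at 6.59, 6.27 and 0.991 CPM in KO RA (1.01 ± 0.63, adjusted p = 0.421, and 0.0755 without KO RA replicate 3). For both genes KO RA replicates 1 and 2 lay above WT RA and replicate 3 lay below it.

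Other γ genes went in other directions. Pcdhgc4 stood at 5.60, 7.02 and 14.1 CPM in WT NO, 8.75, 7.71 and 11.6 CPM in WT RA, 6.09, 5.75 and 2.54 CPM in KO NO, and 11.2, 3.44 and 3.87 CPM in KO RA, and it was not called. Pcdhgb6 stood at 0.916, 1.22 and 0.336 CPM in WT NO and at 2.07, 2.76 and 3.06 CPM in WT RA (1.67 ± 0.52, adjusted p = 0.207, and 0.0479 without KO RA replicate 3). Pcdhgb7 stood at 3.41, 2.86 and 2.87 CPM in WT RA and at 0.813, 0.988 and 0.0991 CPM in KO RA, without overlap (−2.19 ± 0.68, adjusted p = 0.148, and 0.0768 without KO RA replicate 3). Pcdhgb2 was between 0.0478 and 0.511 CPM and Pcdhgc5 between 0.198 and 1.77 CPM in all libraries, and edgeR called neither. The remaining 15 γ genes did not pass the filter.

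Between the genotypes after RA, no member was called with all libraries, where 0.885% of all genes were called higher in KO RA than in WT RA and 0.358% lower. With unadjusted p-values (0.05) there were 9 of 42 members higher and 2 lower, against 1799 and 1100 of all 16502 genes. DESeq2 called 7 members (share over all genes not given). Cdh11 came closest. Without KO RA replicate 3, 5 of 50 members were called higher (Cdh2, Cdh4, Cdh5, Cdh11 and Pcdhgc3, of which Cdh5 passed the filter through KO RA) and 0 lower, where 4.42% of all genes were called higher and 5.44% lower. Cdh2 exceeded WT RA by 0.73 ± 0.15 (adjusted p = 0.0169) and Cdh4 by 1.31 ± 0.35 (adjusted p = 0.0399) in that fit. With unadjusted p-values (0.05) there were then 13 of 50 members higher and 2 lower, against 2261 and 2314 of all 17327 genes.

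The test of whether the RA response differed between KO and WT cells called no member and no gene at all with all libraries (0% higher and 0% lower by edgeR). At an unadjusted p of 0.05, 8 of 42 members passed upwards and 1 downwards, against 913 and 510 of all 16502 genes. DESeq2 called 3 members (Cdh2, Cdh6 and Cdh11). Leaving out KO RA replicate 3 gave higher calls for Cdh2 and Cdh11 and a lower call for Cdh3, where 0.802% of all genes were called higher and 0.537% lower. For Cdh6 and Pcdh18, called in KO cells and not in WT cells, the difference did not pass by edgeR in either fit. DESeq2 called it for Cdh6 (2.93, adjusted p = 0.026), and limma-voom for Cdh6 (2.55, adjusted p = 0.0422) and Pcdh18 (2.24, adjusted p = 0.0247).

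The genes that work with cadherins changed unevenly. Of 12 catenins and plakophilins, the proteins that join cadherins to actin or to keratin, 9 were tested and 1 rose in KO RA against KO NO: Ctnna2, the αN-catenin of neurons (log2 fold change 2.51 ± 0.38, adjusted p = 0.00575). None of them was called by edgeR in another comparison with all libraries, and at most 2 passed an unadjusted p of 0.05 in any of those. Among the 28 other cadherin superfamily genes, 15 were tested, and Dchs1, Dchs2 and Fat4, the large cadherins of planar polarity, rose in KO RA against KO NO by log2 fold changes of 3.03 ± 0.40, 5.25 ± 0.86 and 3.30 ± 0.61. The desmosomal cadherin Dsg2 fell by 2.79 on the log2 scale (SE 0.51, adjusted p = 0.0116). Dsg2 stood at 10.96, 9.03 and 13.2 CPM in KO NO and at 2.39, 1.43 and 0.892 CPM in KO RA. Of the 7 repressors of Cdh1, Snai2 (1.71 ± 0.42, adjusted p = 0.0416) and Twist2 (4.01 ± 0.50, adjusted p = 0.00192) rose in KO RA against KO NO. Over all genes 3.89% were called higher there. Without KO RA replicate 3 the calls for Ctnna2, Dchs1, Dchs2, Fat4, Dsg2, Snai2 and Twist2 held, with adjusted p-values of at most 0.0114. In that fit 5 of the 7 repressors were called higher in KO RA against KO NO and 0 lower, where 8.48% of all genes were called higher. In KO RA against WT RA 1 of the 7 was called higher, where 4.42% of all genes were. The part of the repressors in the level of Cdh1 was not tested. None of the 12 regulators of clustered protocadherin promoters and none of the 10 proteases that cut cadherins was called in any comparison by edgeR with all libraries. At an unadjusted p under 0.05, at most 1 regulator and at most 4 proteases passed in a comparison. Leaving out KO RA replicate 3 gave higher calls for 3 of the 10 proteases between the untreated genotypes and for 4 between the RA-treated ones. Over all genes 4.43% and 4.42% were called higher in these comparisons. Among the 12 regulators that fit gave 1 higher and 2 lower calls between the untreated genotypes, where 4.35% of all genes were called lower. Elsewhere in that fit at most 1 gene of either list was called in a direction.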

How the data were processed

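PolyA RNA of 12 libraries was sequenced as paired ends, and the authors ran nf-core/rnaseq 3.22.2 with default settings (STAR and Salmon) on GRCm39 with Ensembl 109. The deposited values are estimated counts per gene, derived from TPM and brought back to the total of the library: they correct for gene length and are not normalized between libraries. A scaled count is not a number of fragments. After rounding, edgeR 4.0.16 in R 4.3.3 was used: filterByExpr over the 4 groups, TMM factors, 1 robust quasi-likelihood model with a coefficient per group, and Benjamini-Hochberg adjustment over all genes, with calls at an adjusted p under 0.05. Each SE was the absolute log2 fold change divided by the square root of F. The test was checked on simulated counts with a smaller dispersion than the 0.215 of these data. Only genes above 1 CPM were changed there, so the check does not cover members at low levels. The replicates were separate passages of 2 lines, so p-values measure the spread between passages.

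Promoter windows and gene models came from the GRCm39 sequence and GENCODE M39, in which all 92 members were found. Values of near-identical or overlapping genes are uncertain. Named members were those called in any comparison, the 3 highest of each class and 15 genes chosen by name, and members called only without KO RA replicate 3 were added. The members, lists and named genes were chosen with earlier results of these data known. Alternatives were DESeq2 1.42.0 (on all libraries, and on only the groups compared, chosen after the values were seen), DESeq2 size factors, no filter, only the groups compared, limma-voom of limma 3.58.1 with quality weights, a replicate term, CPM without TMM factors and each library left out. Protein sequences were not analysed here.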

Additional observations from a re-analysis of the deposited data

Results flagged for a closer look

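The RA response of 3 members differed between KO and WT cells by the interaction test of edgeR without KO RA replicate 3. Cdh11 responded more in KO cells by 2.76 on the log2 scale (adjusted p = 0.0115), and Cdh2 by 1.40 (adjusted p = 0.0191). Cdh3 responded less, with a difference of −1.79 (adjusted p = 0.0458). With all 12 libraries these differences had the same direction and adjusted p-values of 0.107, 0.327 and 0.486. In each of the 3 genes KO RA replicate 3 was the lowest KO RA library.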

How the results depend on the processing

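The number of members called depended on the tool and the libraries, and the cause was not tested. Counts are given in the order untreated KO against WT, RA-treated KO against WT, RA in WT cells, RA in KO cells and the RA response in KO minus that in WT, which were 0, 0, 1, 5 and 0 with edgeR and all libraries. DESeq2 gave 5, 7, 5, 15 and 3, and limma-voom with quality weights gave 11, 14, 13, 23 and 7. Shares over all genes are given only for edgeR with all libraries and without KO RA replicate 3. The other counts cannot be set against such a share. With only the groups compared, edgeR gave 3, 0, 3 and 3 for the first 4 comparisons. DESeq2 so fitted, an alternative chosen after the values were seen, gave 3, 2, 5 and 12. DESeq2 size factors gave 1 between the RA-treated genotypes (Cdh11) and moved no other count, and dropping the filter moved none. The genes changed without the filter: in KO RA against KO NO, Cdh5, at 0 in all untreated libraries, was called and Pcdhb17 was not. Leaving out 1 library at a time gave 0 to 4, 0 to 5, 0 to 7, 2 to 14 and 0 to 3 calls, with the upper end of each range reached without KO RA replicate 3. The call for RA in WT cells was lost without WT NO replicate 1. No fold change of the 29 pairs of a member and a comparison tried turned its direction: 438 values kept their side of the threshold, 86 passed it newly and 17 no longer passed it. Of the summed levels of classes, 8 moved by more than 1 SD when TMM factors were left out, and the family then summed to means of 175, 149, 181 and 255 CPM in WT NO, WT RA, KO NO and KO RA, where the SD of KO RA was 172 CPM.

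With the replicate number as a term (replicate block) the counts were 0, 0, 1, 4 and 0. The numbers name passages and did not pair the libraries: the correlation of same-numbered libraries after removal of group means ran from −0.215 to 0.0853, and 0 of 18 such pairs exceeded 0.1. Depth limits most clustered genes, of which 39 of 58 did not pass the filter.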

Other observations

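Most markers of neural cells had a positive log2 fold change in KO RA against KO NO, 7 of 8 progenitor and 8 of 10 neuron markers. At an unadjusted p under 0.05 by edgeR, 1 marker of each list was lower. Of 8 progenitor markers 4 were called higher (Sox1, Nes, Vim and Fabp7), with Sox1 at a log2 fold change of 5.70 ± 0.79 (adjusted p = 0.00373) and Fabp7 at 8.004 ± 0.95 (adjusted p = 0.00157). Of 10 neuron markers 3 were called higher: Gap43 (3.45 ± 0.37, adjusted p = 0.000876), Map2 (2.95 ± 0.52, adjusted p = 0.0101) and Tubb3 (1.26 ± 0.27, adjusted p = 0.0243). Their summed level was 76.7 to 94.5 CPM in KO NO and 179 to 277 CPM in KO RA, and 85.8 to 118 CPM in WT NO and 156 to 176 CPM in WT RA. Pax6, the progenitor factor of the dorsal forebrain and eye, was lower in KO cells both without RA (−2.50 ± 0.45, adjusted p = 0.0264) and with RA (−2.21 ± 0.44, adjusted p = 0.0396). Fabp7, a fatty-acid binding protein of radial glia, stood at 0.146, 0.267 and 0.391 CPM in KO NO and at 40.6, 15.6 and 155 CPM in KO RA, with replicate 3 the highest. Each of these calls held without KO RA replicate 3, where the highest adjusted p was 0.0221 (Pax6 with RA). In that fit of KO RA against KO NO, 5 progenitor markers were called higher and 1 lower. Of the neuron markers 4 were called higher and 0 lower.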
